A study of Homo sapiens with 6 samples.

Results

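Desmosomes are the spot-like junctions that tie the keratin filaments of neighbouring epithelial cells together, and 10 genes that encode their parts are described here among 14884 genes measured by name on 6 arrays. They were chosen by name from a given list of desmosomal cadherin and plaque genes, which leaves out DSC1, DSG4 and PKP1. Each of the 10 has 1 probe set, so taking the brightest probe set of a gene dropped none. The family was proposed because DSG2 was already known to be higher in the knockout, so the values of DSG2 are a description with no test. All 10 genes and the gene lists below were also chosen with earlier results of these data known. Their adjusted p-values and shares called may therefore not be independent of that choice. The cells were MDA-MB-231, a human breast carcinoma cell line of the triple-negative class, long established and mesenchymal in shape, grown with serum and, in both groups, given 200 µM hydrogen peroxide for 72 h. Control cells (3 arrays) were compared with cells labelled NR1D1 KO (3 arrays), a knockout of the gene for the heme-binding nuclear receptor and transcriptional repressor REV-ERBα. Sample titles number the arrays as biological replicates, without saying whether they are separate cultures or knockout clones, so the spread behind the p-values may be partly technical. With no untreated arrays, a change in the response to peroxide cannot be told apart from a difference that was there before it.

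In a desmosome, cadherins of the desmoglein (DSG) and desmocollin (DSC) families reach across the gap between cells. Inside each cell their tails bind plakoglobin (JUP) and plakophilins (PKP), armadillo-repeat proteins, which bind desmoplakin (DSP), and desmoplakin holds the keratin filaments. DSG2 and DSC2 are the widely expressed pair of simple epithelia and heart muscle, where they work with PKP2, while DSG1, DSG3 and DSC3 belong mainly to stratified epithelia such as skin. Carcinoma cells that take on mesenchymal features commonly lose desmosomes.

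Knockout cells had higher transcript levels of DSG2, DSC2, DSP and PKP2, which encode a cadherin of each kind, a plakin and a plakophilin. The transcript of plakoglobin (JUP) was lower, and these arrays do not measure protein. Apart from DSG2, 3 of 9 genes rose (DSC2, DSP and PKP2), 1 fell (JUP) and 5 did not pass the test, which was limma at a threshold of 0.05, with p-values adjusted across all 14884 genes by the Benjamini-Hochberg method. Over all genes 9.49% passed, 4.74% as rises and 4.74% as falls. The median log2 change of these 9 genes was 0.06, beside 0.0039 over all genes. Levels are the deposited log2 values, and a level is set only against other arrays of the same gene, since probe sets differ in how strongly they bind.

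The 5 promoter stretches printed here were picked with the changes known, and windows of other desmosome genes are only described after them. Those of DSG2, DSP and DSC2 belong to genes that were higher and have an entry in the RefSeq promoter table. That of DSG3, the neighbour of DSG2, belongs to a gene that did not pass the test. Each stretch is the 250 bases before the annotated start on the gene's own strand, in RefSeq's build GRCh38.p14. Of the 10 genes, 8 have an entry. Capitals mark the E-box CACCTG, the site of zinc-finger repressors such as SNAI2 and ZEB1, and AGGTCA, the hexamer to which nuclear receptors such as REV-ERBα bind, each on either strand (CAGGTG and TGACCT on the reverse).
DSG2, chr18:31497927-31498176, plus strand: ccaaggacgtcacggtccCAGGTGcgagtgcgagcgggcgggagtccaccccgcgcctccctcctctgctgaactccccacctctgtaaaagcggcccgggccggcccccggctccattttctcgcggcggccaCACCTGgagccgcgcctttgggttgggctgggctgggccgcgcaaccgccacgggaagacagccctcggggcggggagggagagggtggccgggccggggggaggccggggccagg
DSP, chr6:7541421-7541670, plus strand: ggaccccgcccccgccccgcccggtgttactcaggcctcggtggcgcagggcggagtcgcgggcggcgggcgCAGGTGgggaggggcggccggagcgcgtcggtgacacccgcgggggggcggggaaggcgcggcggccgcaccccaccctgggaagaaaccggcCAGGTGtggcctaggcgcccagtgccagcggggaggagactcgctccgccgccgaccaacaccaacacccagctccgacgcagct
DSC2, chr18:31102422-31102671, minus strand: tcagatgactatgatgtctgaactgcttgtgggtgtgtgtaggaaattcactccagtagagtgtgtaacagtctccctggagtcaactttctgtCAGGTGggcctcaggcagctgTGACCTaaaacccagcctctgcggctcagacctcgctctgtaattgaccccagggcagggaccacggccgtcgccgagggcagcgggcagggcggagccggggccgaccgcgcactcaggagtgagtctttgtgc
DSC2, second annotated start, chr18:31101261-31101510, minus strand: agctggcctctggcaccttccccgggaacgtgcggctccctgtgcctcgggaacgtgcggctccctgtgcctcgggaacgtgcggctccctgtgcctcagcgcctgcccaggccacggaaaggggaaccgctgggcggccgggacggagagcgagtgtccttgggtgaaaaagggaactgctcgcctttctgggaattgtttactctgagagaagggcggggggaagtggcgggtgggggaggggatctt
DSG3, chr18:31447491-31447740, plus strand: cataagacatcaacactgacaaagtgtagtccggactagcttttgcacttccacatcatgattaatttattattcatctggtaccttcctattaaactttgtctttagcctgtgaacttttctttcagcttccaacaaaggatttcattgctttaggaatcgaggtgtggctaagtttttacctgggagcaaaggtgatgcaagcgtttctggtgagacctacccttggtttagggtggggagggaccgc

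The windows of DSG2 and DSP hold 2 E-boxes each and the first window of DSC2 holds 1, while the second window of DSC2 and that of DSG3 hold 0. The E-box occurs in 17.5% of the 35116 windows of that length in the table. Windows of 2 genes that did not rise also hold it, since JUP has 2 matches before its second annotated start and DSG1 has 1. AGGTCA was found in the first window of DSC2 alone among the windows of these 8 genes, 135 bases before the start, and occurs in 12.1% of all windows. The GC-box core CCCGCC, on either strand and overlapping neither motif, has 5 matches before DSP, 2 before DSG2 and 2 before the second start of DSC2, as well as 4 and 1 before the starts of PKP4, and occurs in 42.5% of all windows. TATAAA was in 0 of these windows and in 10.7% of all. GC content was 75.2% before DSG2 and 78% before DSP, beside 42.8% before DSG3 and 48% before DSG1, with a median of 58% over all windows. It was 59.6% and 66.8% before the starts of DSC2, which rose. Among genes that did not rise, it was 73.2% and 71.6% before the starts of PKP4. It was 63.6% and 66% before those of JUP, and 60.4% before DSC3. These matches describe the letters of a window and show neither binding nor a cause.

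Among the desmogleins, DSG2 was much higher in the knockout. The 3 control arrays read 8.16, 8.30 and 8.23 and the 3 knockout arrays 10.09, 10.09 and 10.10 for DSG2 on the log2 scale. Every knockout array lay above every control array, and the gap between the nearest arrays was 1.79, far wider than the range within either group. The means were 8.23 ± 0.0698 and 10.09 ± 0.0047 (SD, n = 3 each), 3.63-fold higher in the knockout. DSG1 and DSG3, the desmogleins of the outer and deeper layers of the epidermis and the targets of pemphigus antibodies, had groups that overlapped. DSG1 measured 3.14, 3.06 and 3.23 in control and 3.17, 2.995 and 3.05 in knockout arrays, a log2 change of -0.07 with a 95% interval of -0.27 to 0.13 (limma adjusted p = 0.708). DSG3 measured 4.41, 4.49 and 4.5995 in control and 4.49, 4.31 and 4.56 in knockout arrays, a change of -0.05 with an interval of -0.27 to 0.17 (limma adjusted p = 0.829). The intervals end below the difference seen in DSG2, but both genes lie among the dimmest 25% of the genes by mean, where the floor of an array can make a change too small.

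Of the desmocollins, DSC2 rose and DSC3 did not pass the test. DSC2, the desmocollin of simple epithelia and heart, measured 4.39, 4.01 and 4.12 in control and 5.32, 5.31 and 5.09 in knockout arrays. The groups did not overlap, and even the lowest knockout array lay 0.71 above the highest control array. DSC2 rose 2.10-fold, a log2 change of 1.07 with a standard error of 0.118 (limma adjusted p = 0.00121). Its mean also lies among the dimmest 25% of the genes. DSC3, the desmocollin of basal epidermal cells, measured 4.02, 4.07 and 3.92 in control and 3.91, 3.9988 and 3.96 in knockout arrays. Its groups overlapped, with a change of -0.05 and a 95% interval of -0.23 to 0.14 (limma adjusted p = 0.793), and it too is among the dimmest 25%.

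**Figure D1:**
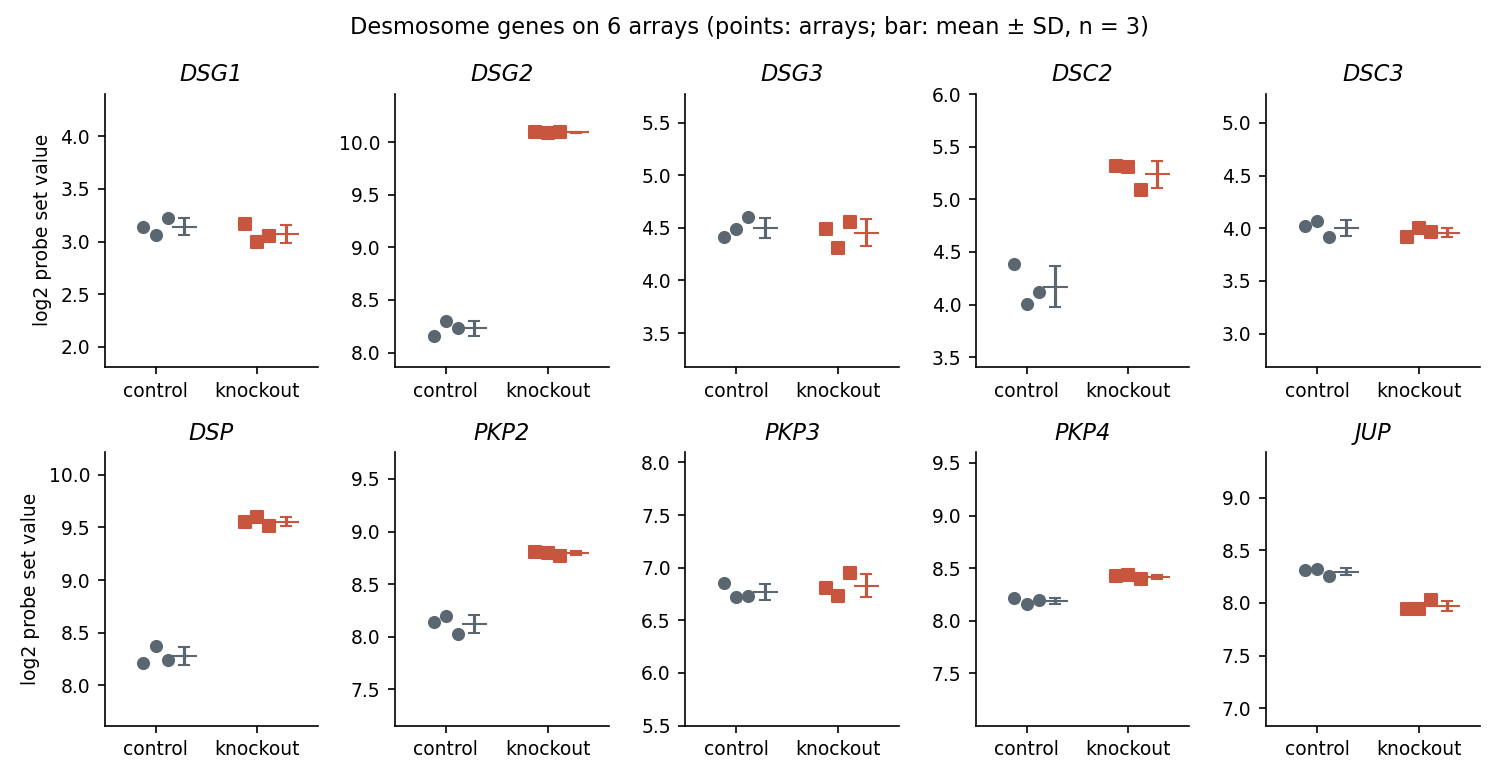
Log2 values of the 10 desmosome genes on the 3 control arrays (grey circles) and 3 knockout arrays (red squares), with each group's mean ± SD beside its points; every panel spans the same length of log2 units around its own gene. DSG2, DSC2, DSP, PKP2 and PKP4 have all knockout arrays above all control arrays, JUP has them all below, and the groups of DSG1, DSG3, DSC3 and PKP3 overlap.

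In the plaque, desmoplakin, the obligate link to keratin, had a large rise. DSP measured 8.22, 8.37 and 8.24 in control and 9.55, 9.60 and 9.52 in knockout arrays. The knockout arrays lay close together, and the groups were 1.14 apart at their nearest. DSP rose 2.42-fold, a log2 change of 1.28 with a standard error of 0.0809 (limma adjusted p = 9.43e-05). DSC2 and DSP, like DSG2, changed by 2-fold or more, and 0.954% of all genes were called with a change of that size. 

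The plakophilins did not move together. PKP2, which clusters desmosomal cadherins and recruits desmoplakin, measured 8.14, 8.19 and 8.03 in control and 8.81, 8.80 and 8.77 in knockout arrays, with no overlap. It rose 1.59-fold, a log2 change of 0.67 with a standard error of 0.0799 (limma adjusted p = 0.00172). PKP4, a relative found at both desmosomes and adherens junctions, measured 8.22, 8.16 and 8.19 in control and 8.42, 8.43 and 8.40 in knockout arrays. All its knockout arrays were higher, by at least 0.18, but the change of 0.23 (1.17-fold) did not pass over all genes (limma adjusted p = 0.101). PKP4 did pass with a prior that follows the level (adjusted p = 0.0384) and when the dimmest 50% of genes were left out (adjusted p = 0.0297). PKP3, the plakophilin with the broadest range of desmosomal partners, measured 6.86, 6.72 and 6.73 in control and 6.80, 6.74 and 6.95 in knockout arrays. Its groups overlapped, although knockout replicate 3 lay above all control arrays. The change of PKP3 was 0.06, with a 95% interval of -0.14 to 0.27 (limma adjusted p = 0.745).

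Plakoglobin went the other way. JUP, whose product sits in both desmosomes and adherens junctions, measured 8.31, 8.32 and 8.26 in control and 7.94, 7.94 and 8.03 in knockout arrays. All knockout arrays lay below all control arrays, by at least 0.23. JUP was 1.25-fold lower, a log2 change of -0.33 with a standard error of 0.0758 (limma adjusted p = 0.0329). That call rests on all 6 arrays. Without control replicate 1, 2 or 3 the adjusted p of JUP was 0.103, 0.101 or 0.0932, and without knockout replicate 1, 2 or 3 it was 0.0733, 0.1 or 0.0544, with a change between -0.35 and -0.31. The 3 rises of DSC2, DSP and PKP2 passed whichever array was left out, with adjusted p no higher than 0.0105. Of the 9 genes beside DSG2, 4 had all knockout arrays above and 1 all below the control arrays, and in all genes 28.7% had groups that do not overlap (15.1% higher and 13.6% lower).

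**Figure D2:**
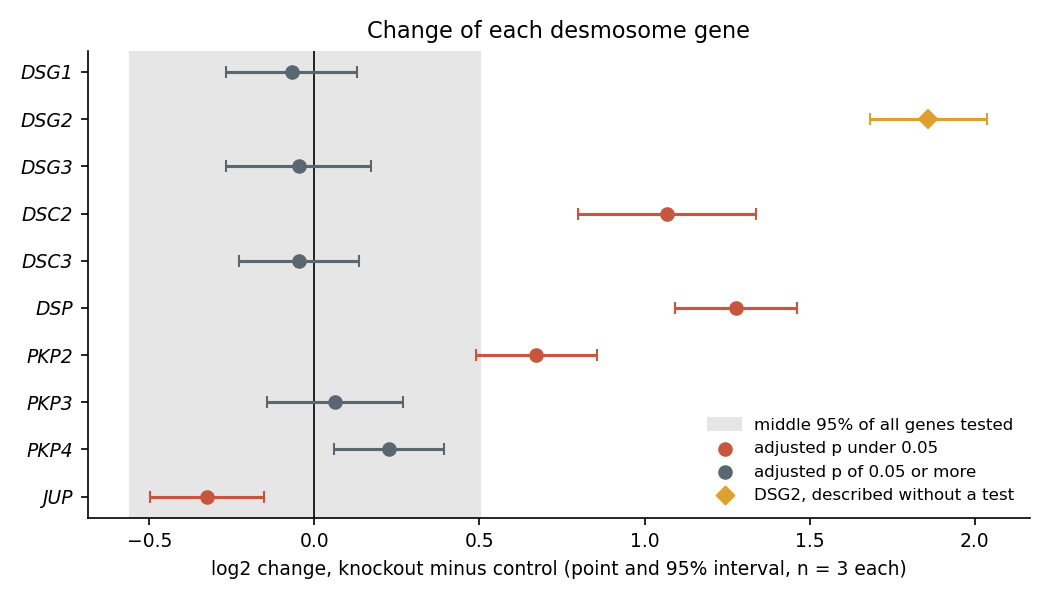
Log2 change of each desmosome gene (knockout minus control, point and 95% interval from the limma fit, 3 arrays a group), with the range that holds the middle 95% of all 14884 genes shaded from -0.56 to 0.50. The interval of DSG2, which was chosen for its rise, is a description and no test. The points of DSC2, DSP and PKP2 lie to the right of the shading with that of DSG2, though the interval of PKP2 starts inside it at 0.49, and the fall of JUP lies inside it.

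The cadherin genes sit side by side on chromosome 18, which lets their changes be read in gene order. From one end the order is DSC3, DSC2, DSC1, DSG1, DSG4, DSG3 and DSG2, with the desmocollins on the minus strand and DSG1, DSG3 and DSG2 on the plus strand of the RefSeq promoter table. Within these 7 genes DSC2 and DSG2 were higher, and the 4 genes that lie between them did not pass the test. DSC1, next to DSC2, changed by 0.13 (adjusted p = 0.602), DSG1 by -0.07, DSG4 by -0.11 (adjusted p = 0.7) and DSG3, next to DSG2, by -0.05. DSC1 and DSG4 are also among the dimmest 25% of the genes. On the far side of DSG2, TTR, the thyroxine carrier gene, changed by 0 and TRAPPC8 by 0.12 (limma adjusted p = 0.51). On the far side of DSC3, CHST9 changed by 0.06 (adjusted p = 0.747). Of the 16 measured coding genes around DSG2 other than the genes described here, 0 passed limma's adjusted test and 1 had an unadjusted p under 0.05, and their median change was -0.0001. IMPACT and CABYR, farther off on the DSC3 side, were lower by 0.35 and 0.36 (adjusted p = 0.0278 and 0.031). IMPACT missed the threshold without any 1 of the 6 arrays (adjusted p of 0.0565 to 0.108), and CABYR without any except knockout replicate 2 (0.0728 to 0.0987 for the others).

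The plaque genes lie on chromosomes of their own, and their surroundings differed. Of the 20 measured coding genes around DSP on chromosome 6, 17 had a change above 0, 4 rose and none fell, with a median of 0.14. A change above 0 was found in 64.8% of coding genes on chromosome 6 and in 51% of all genes. Directly beside DSP, SNRNP48, a gene of the minor spliceosome, rose by 0.63 (limma adjusted p = 0.00359). RIOK1, on the other side, changed by 0.31 and did not pass (limma adjusted p = 0.2035). Farther off, ECI2 rose by 0.41, PRP4K by 0.36 and BLOC1S5 by 0.35. PRP4K and BLOC1S5 missed the threshold without any 1 array (adjusted p of 0.0552 to 0.0938 and 0.0525 to 0.107), and ECI2 without control replicate 3 (0.0666) or knockout replicate 2 (0.0552). On the whole of chromosome 6, 98 of 617 coding genes rose and 22 fell. Around PKP2 on chromosome 12, 16 of 20 genes were above 0, with a median of 0.09. LRRK2, a kinase gene linked to Parkinson's disease, rose by 0.68 (limma adjusted p = 0.00344). DNM1L and SYT10, directly beside PKP2, changed by -0.05 and 0.11 (limma adjusted p = 0.763 and 0.497). LRRK2 and SYT10 are among the dimmest 25% of the genes. IPO8 there changed by 0.31 (limma adjusted p = 0.0495) but missed the threshold without any 1 array (0.0638 to 0.177).

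Around PKP4 on chromosome 2, 5 of 20 measured coding genes fell, 1 rose and the others did not pass the test, with a median of -0.06. Over all genes 4.74% fell and 4.74% rose. DPP4, a cell-surface peptidase gene, was lower by 1.86, LY75-CD302, a read-through of a pair of receptor genes, by 0.99, TANK, an adaptor of NF-κB signalling, by 0.74 and FMNL2, a formin gene, by 0.56 (limma adjusted p of 3.32e-05, 0.000264, 0.00518 and 0.00424). GALNT5 was lower by 0.38 (adjusted p = 0.0433, but 0.0504 to 0.133 with any 1 array left out). COBLL1 was higher by 0.56 (adjusted p = 0.0357, but 0.0638 to 0.101 without any 1 array except control replicate 1). The genes directly beside PKP4 were CCDC148, at 0.17 (adjusted p = 0.219), and DAPL1, at -0.27 (adjusted p = 0.546). Around PKP3 on chromosome 11, 0 of 18 genes passed limma's adjusted test and 1 had an unadjusted p under 0.05. IFITM3 and SIGIRR on its sides changed by -0.11 and 0.08 (adjusted p = 0.625 and 0.748). JUP shares chromosome 17 with NR1D1, with 77 annotated coding genes between them, and of its 20 measured neighbours 1 rose and none fell, with a median of 0.01. HAP1 and P3H4 beside JUP changed by -0.25 and 0.07 (adjusted p = 0.107 and 0.684), and the neighbour that rose was the keratin gene KRT19. 

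**Figure D3:**
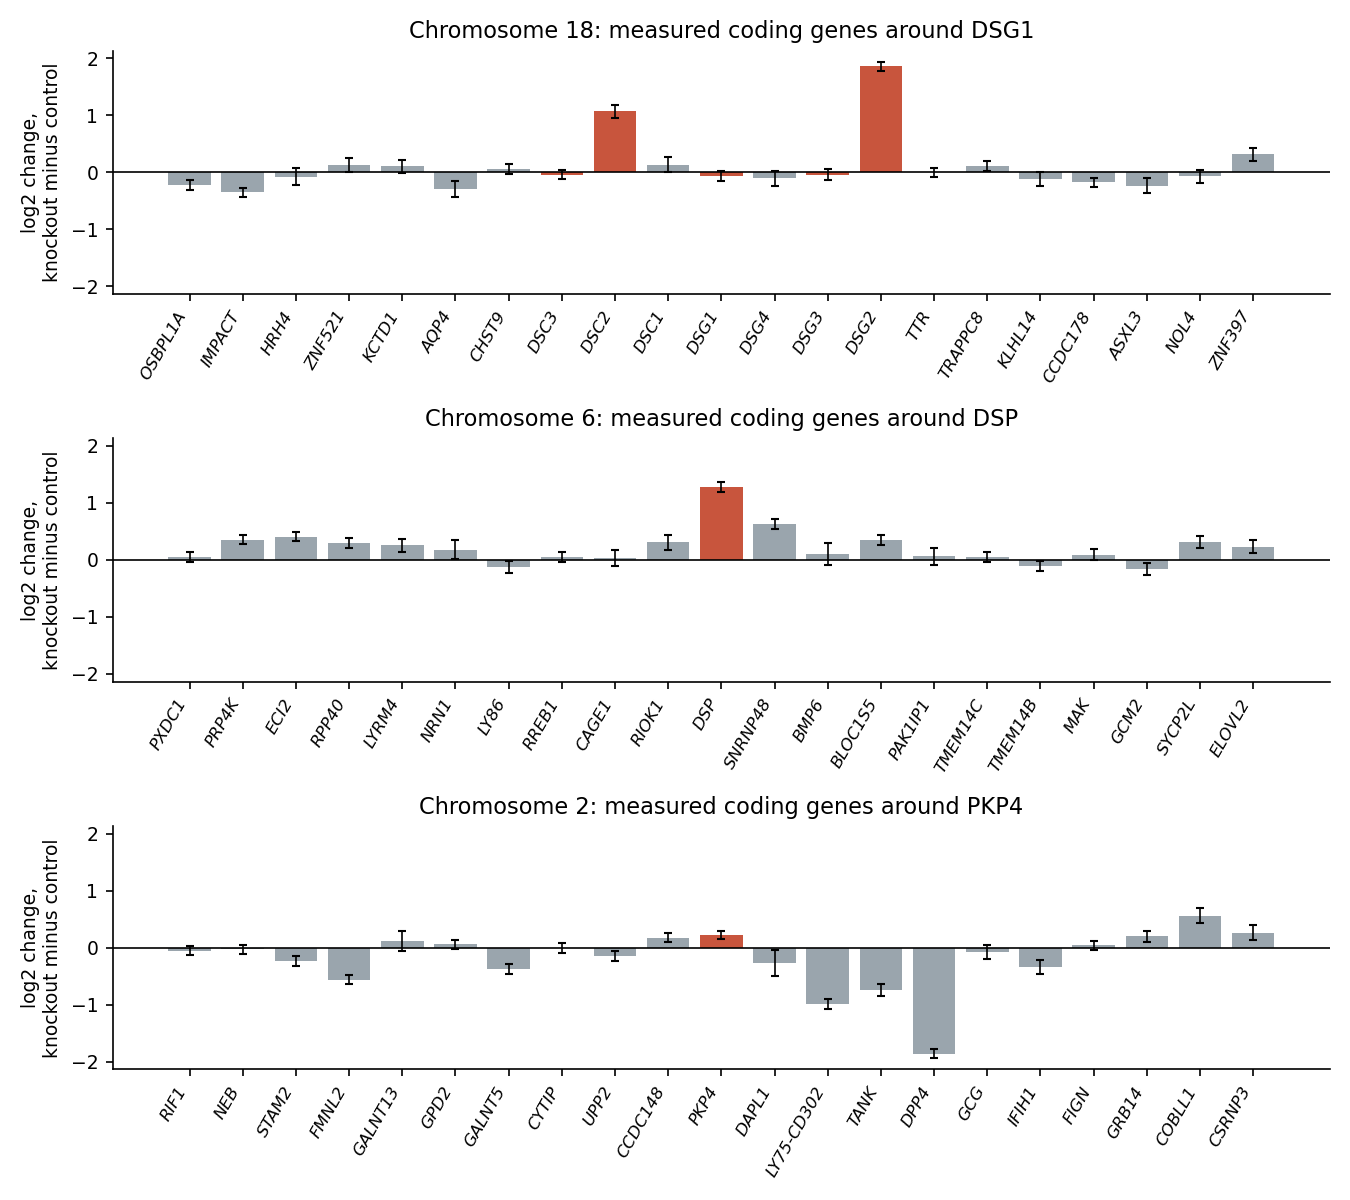
Log2 change (knockout minus control, bar, with its standard error) of measured coding genes in chromosome order around DSG1, DSP and PKP4, with the 10 desmosome genes in red and other genes in grey. DSC2 and DSG2 stand above neighbours near 0 on chromosome 18, DSP is the tallest bar among mostly positive neighbours, and PKP4 is positive with DPP4 close by at -1.86.

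The other genes of the desmosome, and of the filaments and linkers it joins, were read against the 9.49% called over all genes. Of 5 further desmosome genes 4 were measured, and 0 of them passed limma's adjusted test or an unadjusted p of 0.05. PKP1, the plakophilin of the upper epidermis, changed by -0.04 (adjusted p = 0.898), the hair-type desmoglein gene DSG4 by -0.11, DSC1 by 0.13 and CDSN, which encodes corneodesmosin, by 0.04 (adjusted p = 0.855). All of these but CDSN are among the dimmest 25% of the genes, where the floor of an array can make a change too small. Of 5 plakin and cytolinker genes 2 rose (40%). EVPL and PPL, which encode envoplakin and periplakin, partners at desmosomes and the cornified envelope, rose 1.33-fold and 1.28-fold (limma adjusted p = 0.0483 and 0.0247). PPL measured 7.23, 7.20 and 7.15 in control and 7.48, 7.57 and 7.60 in knockout arrays, with no overlap. EVPL missed the threshold without any 1 array except control replicate 1 (0.0988 to 0.133), and PPL without any except knockout replicate 1 (0.068 to 0.0995). Of 18 keratin genes measured 2 rose and none fell (11.1%), with a median change of 0.06 and 4 higher and 1 lower at an unadjusted p under 0.05. The 2 that rose were KRT19 and KRT18, filament partners of simple epithelia, at 1.33-fold and 1.28-fold (limma adjusted p = 0.0441 and 0.0439). KRT18 was read at its brightest probe set, whose position in the genome was not checked. With the mean of a gene's probe sets, 1 keratin and 3 of the luminal markers described below were called. KRT19 kept the threshold only without knockout replicate 1 (0.0461, and up to 0.149 otherwise) and KRT18 lost it without any 1 array (0.0656 to 0.156).

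Genes of other junctions gave a mixed picture. Of 24 adherens junction genes listed, 6 had a probe set named in the annotation used here. Of these 6, 1 (16.7%) rose, the nectin gene NECTIN3 (1.38-fold, limma adjusted p = 0.0276). It missed the threshold without any 1 array except knockout replicate 3 (0.0581 to 0.0963). Of 27 tight junction genes measured 3 fell and 1 rose (14.8% called, beside 9.49% over all genes), with a median change of -0.01. CLDN1, the barrier claudin of epithelia, fell 2.15-fold, from 6.51 ± 0.0863 to 5.40 ± 0.124 (SD, n = 3 each, limma adjusted p = 0.000319). PARD6B, of the polarity complex, fell 1.9-fold and CLDN11 1.46-fold (limma adjusted p = 0.000642 and 0.00787). TJP1, which encodes the scaffold ZO-1 and was named after its value was seen as the rise of that list, was 1.31-fold higher (limma adjusted p = 0.0276, but 0.0636 to 0.0909 without any 1 array except knockout replicate 3). Of 13 genes on the gap junction list only the pannexin channel gene PANX1 was measured, so none of the connexin genes listed was read. PANX1 fell 1.34-fold (limma adjusted p = 0.0176), a call lost when either of replicates 2 and 3 of either group was left out (0.0552 to 0.0745). Of 7 hemidesmosome genes CD151 was measured and changed by 0.02 (adjusted p = 0.949).

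Among genes known to control desmosomes, calls were about as frequent as the 9.49% over all genes. Of 12 regulators measured, among them genes of sheddases, kinases, small GTPases and membrane scaffolds, 1 rose and none fell (8.33%). This was FLOT1, the gene of a flotillin, a lipid raft protein reported at desmosomes, from 9.19 ± 0.126 to 9.95 ± 0.0857 (SD, n = 3 each), 1.69-fold (limma adjusted p = 0.00211). Of 11 epithelial transcription factor genes, among them those of the grainyhead-like and ovo-like families, 1 fell and none rose (9.09%), with a median of -0.01. EHF, an epithelial ETS factor gene, fell 2.41-fold, from 9.56 ± 0.0657 to 8.29 ± 0.0866 (SD, n = 3 each, limma adjusted p = 0.000114). Of 9 mesenchymal transcription factor genes 0 passed limma's adjusted test and 1 was lower at an unadjusted p under 0.05, with a median of -0.02. The E-box repressor genes SNAI2 and ZEB1 changed by -0.07 and -0.08 (adjusted p = 0.639 and 0.723).

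**Figure D4:**
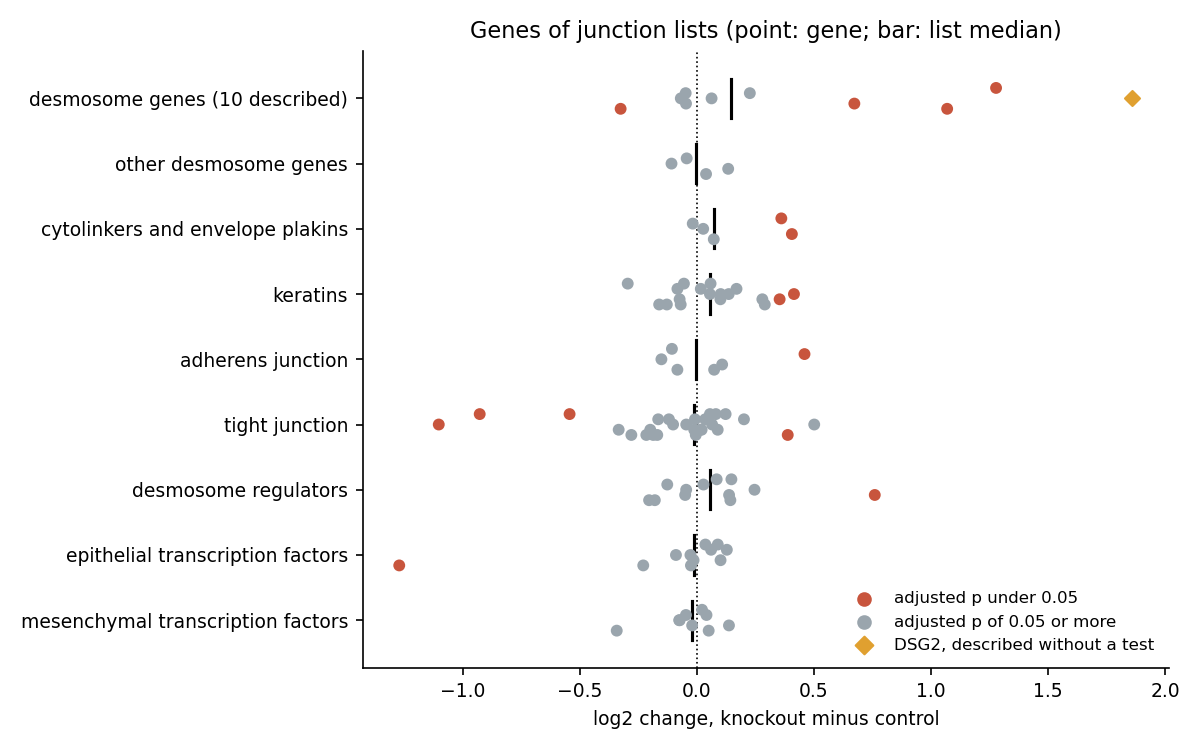
Log2 change (knockout minus control) of each measured gene in 9 lists of desmosome, junction and regulator genes, with the list median as a bar, genes past an adjusted p of 0.05 in red and DSG2 as a diamond. The desmosome genes reach 1.86, while EHF at -1.27 and CLDN1 at -1.10 lie at the other end.

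Markers of other cell types were set beside these changes. Their levels were also summed, although probe sets differ in how strongly they bind, so a sum is led by its brightest probe sets and is set only against the same sum on other arrays. The 9 measured luminal epithelial markers summed to 10.63 to 10.74 in control and 10.81 to 10.94 in knockout arrays (log2 of the summed linear values). Of these 9, 3 rose and 1 fell (44.4% called, beside 9.49% over all genes). The adhesion gene EPCAM rose 1.32-fold (limma adjusted p = 0.0286, but 0.0551 to 0.101 without any 1 array except knockout replicate 1), KRT18 and KRT19 as above, and GATA3, of luminal fate, fell 1.65-fold (adjusted p = 0.00166). The 5 measured basal markers summed to 9.10 to 9.19 in control and 8.97 to 9.05 in knockout arrays, and 0 passed limma's adjusted test, with 1 lower at an unadjusted p under 0.05. Of these 5, 3 had a change above 0 and their median change was 0.06, so sum and median differ in sign, and MYLK, the largest term of the sum, changed by -0.32 (adjusted p = 0.0579). Of 3 leukocyte markers the lysosomal gene CD68, which many cells express, fell by 0.45 (limma adjusted p = 0.0167, but 0.05 to 0.066 without any 1 control replicate), with sums of 10.88 to 10.93 and 10.33 to 10.58. Of 2 fibroblast markers 0 passed by either p, with sums of 5.40 to 5.56 and 5.23 to 5.92. Of 3 endothelial markers KDR rose by 0.50 (limma adjusted p = 0.00628), with sums of 7.002 to 7.12 and 7.18 to 7.33. Of the genes that mark this line, VIM rose by 0.34 (limma adjusted p = 0.0337, but 0.0762 to 0.117 without any 1 array except knockout replicate 1), CD44 fell by 0.35 (adjusted p = 0.0324, but 0.052 to 0.112 without any 1 array), AXL changed by 0.21 (adjusted p = 0.158), and ESR1 and PGR by 0.0008 and 0.05 (adjusted p = 0.998 and 0.728). The part of a shift in cell makeup in the desmosome values was not tested, and in bulk RNA more cells with a transcript and more of it per cell cannot be told apart.

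Genes that followed DSG2 most closely over the 6 arrays were sought among the 143 other genes whose change was 2-fold or more. The nearest was DSP itself, with a Pearson r of 0.999, followed by KLHL4 (0.998), ELAPOR2 (0.997), ZNF184 and MBOAT1 (both 0.996). CEMIP and CSF1 ran opposite to DSG2 with an r of -0.9995 and -0.9994, and DPP4 with -0.998. KLHL4, a kelch-domain gene, read 8.36, 8.502 and 8.52 in control and 9.58, 9.62 and 9.62 in knockout arrays. ELAPOR2 read 5.67, 5.66 and 5.71 in control and 7.12, 7.09 and 7.24 in knockout arrays. These r values mostly restate the gap between the groups, since any gene with a large and even change scores near 1, and they carry no test.

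Over the series, 1412 of 14884 genes passed, 706 higher and 706 lower, and arrays had medians of 5.18 to 5.22. Over the genes, 2 arrays of the same group correlated at 0.991 to 0.993 and 2 of different groups at 0.982 to 0.985. Log2 changes had a median standard error of 0.101, and the number of arrays limits the precision. The annotation used here names 0 probe sets for NR1D1, so the knockout was not checked at its transcript.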

How the data were processed

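RNA from the 6 samples was amplified and biotin-labelled for whole-transcript GeneChips (labels' protocols). A single table of log2 values was deposited by the authors, read as such from their range of 1.16 to 13.75. Its arrays share nearly the same quantiles, so it had been normalized. The normalization and summarization method is not given in the sources used here. Neither detection calls nor a filter on dim genes was used.

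Of 53617 probe sets, 16098 had 1 gene symbol in the platform annotation, 0 several and 37519 none. All 16098 matched a RefSeq gene table (GRCh38.p14) by gene identifier. That table gave gene order only, since no build is named for the arrays. For 779 genes with several probe sets the brightest on average was taken, giving 14884 genes.

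Groups came from the sample titles. The comparison used R 4.3.3 and limma 3.58.1 (lmFit with eBayes, two-sided, Benjamini-Hochberg over all genes, threshold 0.05), and intervals are 95%. The fit was tested on simulated data. The 10 genes and all lists were chosen with earlier results of these data known. Genes named beside them are up to 3 called genes per list with the largest change, all other desmosome genes measured, the measured genes directly beside each of the 10 and any called one among 10 on each side, the 5 genes most and 3 least like DSG2, and markers of the line. Promoter windows came from a RefSeq table. Alternatives were quantile normalization, median centring, dropping the dimmest 25% or 50% of genes, the mean of a gene's probe sets, fitting every named or every probe set, a trend and robust prior, array weights, a replicate block, each array left out, a fold of 1.5 with an unadjusted p under 0.05, and limma's treat against 1.2-fold. Python 3.11.15 with matplotlib 3.10.9 drew the figures.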

Additional observations from a re-analysis of the deposited data

How the results depend on the processing

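DSC2, DSP and PKP2 kept their direction and their side of the threshold under every alternative in which they were fitted (16 for DSC2, which the filters on dim genes removed, and 18 for the others), with log2 changes of 0.99 to 1.18, 1.25 to 1.32 and 0.63 to 0.71. The change of DSG2, which was chosen for its rise and carries no test, lay between 1.82 and 1.89. DSG1, DSG3, DSC3 and PKP3 passed under none. The change of PKP4, 0.2262, passed with the dimmest 50% of genes left out (adjusted p = 0.0297) and with the trend and robust prior (adjusted p = 0.0384). The change of JUP, -0.3254, missed the threshold when all 53617 probe sets were fitted (adjusted p = 0.123), with the replicate block (adjusted p = 0.0809), at a fold of 1.5 and by treat (adjusted p = 1), which left 0 desmosome genes called lower, and with any 1 array left out (changes of -0.3544 to -0.3106, 0 called lower).

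Deviations of same-numbered arrays from their group means correlated at 0.0547, 0.0681 and -0.106. These values give no sign that the replicate numbers pair the arrays. They cannot show that the arrays were unpaired, since a small shared effect would look the same. The replicate block called 1050 genes, 4 genes beside the desmosome genes higher (against 8), 0 cytolinkers, 0 keratins, 0 adherens junction genes, 0 gap junction genes and 2 luminal markers. Other alternatives also moved counts. At a fold of 1.5 with an unadjusted p, 558 genes were called (235 higher and 323 lower), with 2 and 3 genes beside the desmosome genes higher and lower. By treat these were 333 genes (124 and 209), with 1 and 2. Both settings called 0 cytolinkers, 0 keratins, 0 adherens junction genes, 2 tight junction genes, 0 gap junction genes, 1 luminal marker, 0 leukocyte markers and 0 endothelial markers. Quantile normalization called 1 cytolinker, 1 keratin and 1 basal marker, the mean of probe sets 1 keratin, the trend and robust prior 2 desmosome regulators and 1 basal marker, and each filter on dim genes 1 basal marker. Fitting all probe sets left 2 genes beside the desmosome genes higher and 4 lower (against 7), and groups did not overlap in 11110 probe sets (against 4274 genes), since more features were fitted. With 1 array left out, 723 to 1049 genes were called, 336 to 518 higher and 387 to 531 lower. The fewer arrays left 2 to 5 genes beside the desmosome genes higher and 4 to 5 lower, 0 to 1 cytolinkers, keratins, adherens junction genes, gap junction genes and leukocyte markers, and 1 to 3 luminal markers. Where no cause is named, the cause was not tested. The floor of the array limits the changes of dim genes, among them DSC2, DSG1, DSG3 and DSC3.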
